A study of Mus musculus with 12 samples.

Results

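Expression of 10 genes of the hair matrix was examined in skin of C3H/HeJ mice with alopecia areata before and after topical baricitinib, an inhibitor of Janus kinases. The genes were the transcription factors Hoxc13, Msx1, Msx2, Foxn1, Dlx3, Lef1 and Ovol1, the ligands Wnt10b and Wnt5a, and Axin2. Every probe set annotated to 1 of these symbols alone was taken, which gave 20 of the 45037 probe sets tested and 10 of the 18193 genes they represent. The study followed 6 mice, of which 3 received topical baricitinib and 3 received topical vehicle. Skin of each mouse was taken at week 12 and at week 0, the start of treatment, and was hybridised to Affymetrix mouse genome arrays, which gave 12 arrays in 4 groups of 3. The groups were baricitinib week 12, baricitinib week 0, vehicle week 12 and vehicle week 0. All 4 groups came from C3H/HeJ recipients of grafted alopecic skin in which disease was already established, so that no group was healthy skin and the baricitinib week 0 skin had not yet been treated. Levels are the deposited log2 values, and differences are on the log2 scale.

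The hair matrix lies at the base of the follicle, where rapidly dividing epithelial cells leave the cycle and differentiate into the hair shaft and its sheath while the follicle is in anagen, the growth phase. Wnt ligands made in and around the matrix act through Frizzled receptors, stabilise beta-catenin and let it bind Lef1 on DNA, and this signal together with Hoxc13, Foxn1, Msx2 and Dlx3 governs hair keratin genes. In alopecia areata, T cells attack anagen follicles and hair is lost. The study reported that hair regrew in the mice given topical baricitinib, with no regrowth seen on vehicle. The whole skin was measured, so that fewer matrix cells and less RNA per matrix cell cannot be told apart in any value below.

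Sequence before the transcription start was at hand for 6 of the 10 genes, in 9 windows of 250 bases from RefSeq (GRCm38.p6). Windows are shown for Msx2 and Msx1, whose levels differed most with baricitinib, Lef1, the partner of beta-catenin, and Axin2, a Wnt target. They lie at chr13:53472781-53473030 on the minus strand (Msx2), chr5:37824586-37824835 on the minus strand (Msx1), chr3:131156044-131156293 on the plus strand (Lef1, the last of its 4 annotated starts) and chr11:108920099-108920348 on the plus strand (Axin2). Capitals mark CCAAT, the CCAAT box, and CTTTGA, the core bound by TCF and LEF factors, on either strand, so that ATTGG and TCAAAG are the same motifs read from the other strand.
Msx2: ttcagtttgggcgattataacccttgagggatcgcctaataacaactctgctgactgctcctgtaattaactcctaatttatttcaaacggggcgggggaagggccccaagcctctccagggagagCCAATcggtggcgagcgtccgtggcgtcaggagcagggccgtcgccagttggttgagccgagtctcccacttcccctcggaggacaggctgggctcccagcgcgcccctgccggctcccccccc
Msx1: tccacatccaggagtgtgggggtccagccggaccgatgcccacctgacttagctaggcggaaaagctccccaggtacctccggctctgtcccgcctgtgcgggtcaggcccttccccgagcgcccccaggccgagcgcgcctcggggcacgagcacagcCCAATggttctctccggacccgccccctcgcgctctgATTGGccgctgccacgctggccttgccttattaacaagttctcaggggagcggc
Lef1: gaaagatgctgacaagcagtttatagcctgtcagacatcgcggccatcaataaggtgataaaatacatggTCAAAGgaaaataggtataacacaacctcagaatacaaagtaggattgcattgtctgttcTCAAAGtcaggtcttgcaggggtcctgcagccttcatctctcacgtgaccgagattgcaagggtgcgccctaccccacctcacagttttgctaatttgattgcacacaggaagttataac
Axin2: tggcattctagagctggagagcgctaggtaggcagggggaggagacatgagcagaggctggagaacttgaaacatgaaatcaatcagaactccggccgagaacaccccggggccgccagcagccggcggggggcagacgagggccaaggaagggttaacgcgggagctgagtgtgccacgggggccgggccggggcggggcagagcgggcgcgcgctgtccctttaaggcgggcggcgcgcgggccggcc

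Msx2 held a single CCAAT, 124 to 120 bases before its start, and Msx1 held it on each strand, at 91 to 87 and at 54 to 50 bases. CCAAT was also present in the Foxn1 window and occurred on either strand in 33.8% of all 32851 promoter windows of the same length. CTTTGA was found in the last Lef1 window only, which is the window shown out of 4. It lay at 180 to 175 and at 120 to 115 bases before the start, and occurred in 13.8% of all windows. Neither motif was in the Axin2 or Wnt10b windows. TAATTG, a core bound by Msx and Dlx homeodomains, was in none of the 9 windows on either strand and in 7.17% of all windows. No overlap between motifs occurred in the windows shown.

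Array quality was uneven across the groups. Array medians were 5.16 to 5.35, and the median correlation of an array with the others was 0.945 for baricitinib week 0 replicate 2 and 0.951 for baricitinib week 12 replicate 1, against 0.955 to 0.979 for the other 10. The methods of the study state that a baricitinib array at each time failed quality control and was left out of the authors' later analysis, without saying which. A control sample at baseline was left out as well, and the wording does not make clear from which experiment. All 12 deposited arrays were used here. The log2 difference between the 3' and 5' Gapdh probe sets, an index of RNA integrity that is higher in more degraded or less fully copied RNA, was 3.39, 1.00 and 1.10 at baricitinib week 12 and 3.13, 3.83 and 2.17 at baricitinib week 0. It was 2.75, 2.96 and 3.79 at vehicle week 12 and 0.84, 3.78 and 4.29 at vehicle week 0. The index thus varied between arrays, with overlapping ranges in the 4 groups, and was not tested between them. The members' values are also given with the index as a covariate where this changed a call, with counts alone for the gene lists.

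Over 12 weeks of baricitinib, Msx2 fell and was the only member that passed the test in limma at an adjusted p under 0.05. This was 1 of 20 member probe sets, beside 0.875% of all probe sets called lower and 1.24% called in either direction. Of the 20 probe sets, 17 lay below 0 (49.7% of all probe sets did), with a median of -0.60 against 0 over all probe sets. At an unadjusted p under 0.05 there were 9 of 20, against 12.3% of all probe sets. All 3 week 12 arrays were below all 3 week 0 arrays in 7 of 20, against 7.91% of all probe sets, and above them in 1 of 20, against 7.97%. The values in each array are given first for the Msx genes.

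**Figure D1:**
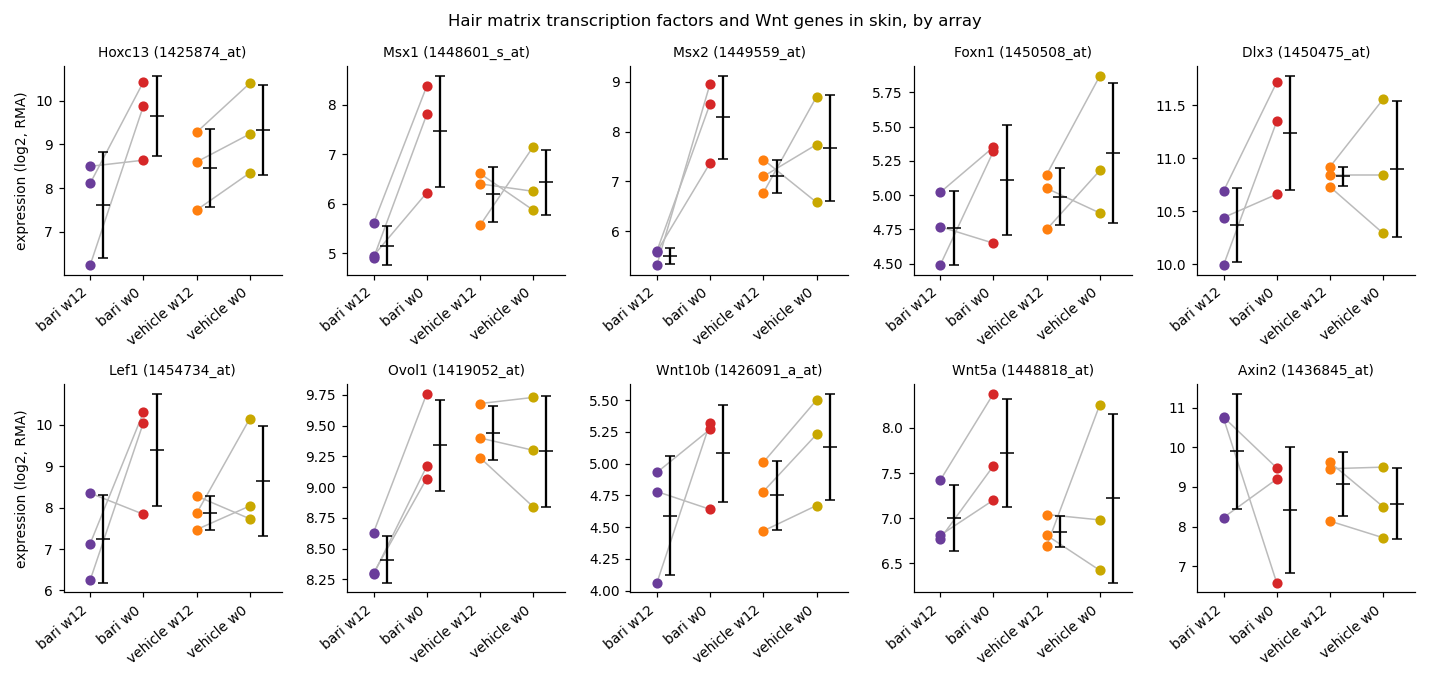
Level of the probe set with the highest mean for each of the 10 genes (vertical axis, log2, with its own range in each panel) in the 4 groups. Points are arrays, grey lines join the arrays of a mouse, and bars beside them give mean and SD (n = 3). Msx2 arrays at baricitinib week 12 lie between 5.32 and 5.60, below every other array, while Axin2 spans 6.58 to 10.76.

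Msx2, a homeobox gene needed in mice for normal hair cycling and shaft differentiation, had levels of 5.60, 5.59 and 5.32 at baricitinib week 12, against 8.56, 7.37 and 8.96 at baricitinib week 0 (1449559_at). The week 12 arrays were close together and all far below the week 0 arrays of the same mice. The difference was -2.79 (SE 0.50, 95% interval -3.90 to -1.69, as all intervals not adjusted for the number of probe sets), or 6.93-fold lower, with an adjusted p of 0.0248 in limma, and Msx2 was lower in 3 of 3 mice, by -2.97, -1.77 and -3.64. With the mouse as a fixed block the adjusted p was 0.0843. The second Msx2 probe set, 1438351_at, read between 3.09 and 3.98 in all 12 arrays and was also lower in all 3 mice (-0.57, adjusted p = 0.28 in limma).

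Msx1, a close relative of Msx2 that is also expressed in the hair matrix, had levels of 5.60, 4.95 and 4.90 at baricitinib week 12, against 8.37, 6.22 and 7.80 at baricitinib week 0 (1448601_s_at, a probe set type that can match more than 1 transcript). The groups did not overlap, and mouse 2 had the lowest week 0 level. The difference of -2.32 (SE 0.53, interval -3.47 to -1.17) missed the threshold at an adjusted p of 0.0600 in limma. It passed with the dimmer probe sets left out of the test (0.0439), with the index as a covariate (0.0342), and without baricitinib week 0 replicate 2 (0.0191) or week 12 replicate 1 (0.0480). With the mouse as a fixed block its adjusted p was 0.104 in limma. It stayed uncalled in 10 of the 12 fits with 1 array left out. The other Msx1 probe set, 1417127_at, lay between 4.78 and 5.46 in all arrays and gave -0.38 (adjusted p = 0.554).

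Hoxc13, a homeobox regulator of hair keratin genes and a member of the hair score that the study's authors defined, had levels of 6.24, 8.50 and 8.11 at baricitinib week 12, against 9.88, 8.64 and 10.43 at baricitinib week 0. The groups were separated by only a small gap, between 8.50 and 8.64, both from mouse 2. The difference of -2.03 (SE 0.71, interval -3.60 to -0.47) had an adjusted p of 0.239 in limma, and the changes in the 3 mice were -3.64, -0.14 and -2.32.

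Lef1, the DNA-binding partner of beta-catenin, had levels of 6.25, 8.35 and 7.13 at baricitinib week 12, against 10.05, 7.84 and 10.30 at baricitinib week 0 (1454734_at). The groups overlapped because mouse 2 was slightly higher at week 12 (0.50), whereas the changes in mice 1 and 3 were -3.81 and -3.17. The overall difference was -2.16 (SE 0.77, interval -3.84 to -0.48, adjusted p = 0.245 in limma). The other Lef1 probe set, 1421299_a_at, read 2.81 to 4.39 and gave -0.23.

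The remaining transcription factors moved less. Ovol1, a zinc finger factor of epidermal and hair differentiation, had levels of 8.29, 8.30 and 8.63 at baricitinib week 12, against 9.17, 9.07 and 9.76 at baricitinib week 0 (1419052_at, -0.93, SE 0.28, adjusted p = 0.156 in limma). These groups did not overlap, but the other Ovol1 probe set, 1419051_at, gave 0.09 (interval -0.76 to 0.93) with overlapping groups. Dlx3, a homeobox gene of hair and epidermal differentiation had levels of 9.99, 10.44 and 10.69 at baricitinib week 12, against 11.35, 10.66 and 11.72 at baricitinib week 0 (1450475_at). All 3 mice were lower at week 12, and the groups overlapped by a narrow margin (-0.87, SE 0.35, adjusted p = 0.325). The other Dlx3 probe set, 1422037_at, gave -0.21 (interval -1.76 to 1.35, adjusted p = 0.95) with overlapping groups, and mouse 2 was higher there at week 12 (0.79). Foxn1, the gene mutated in nude mice, lay between 3.83 and 5.87 over its 2 probe sets, with differences of -0.35 (interval -1.01 to 0.31) and -0.84 (interval -1.73 to 0.04) and overlapping groups for each.

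**Figure D2:**
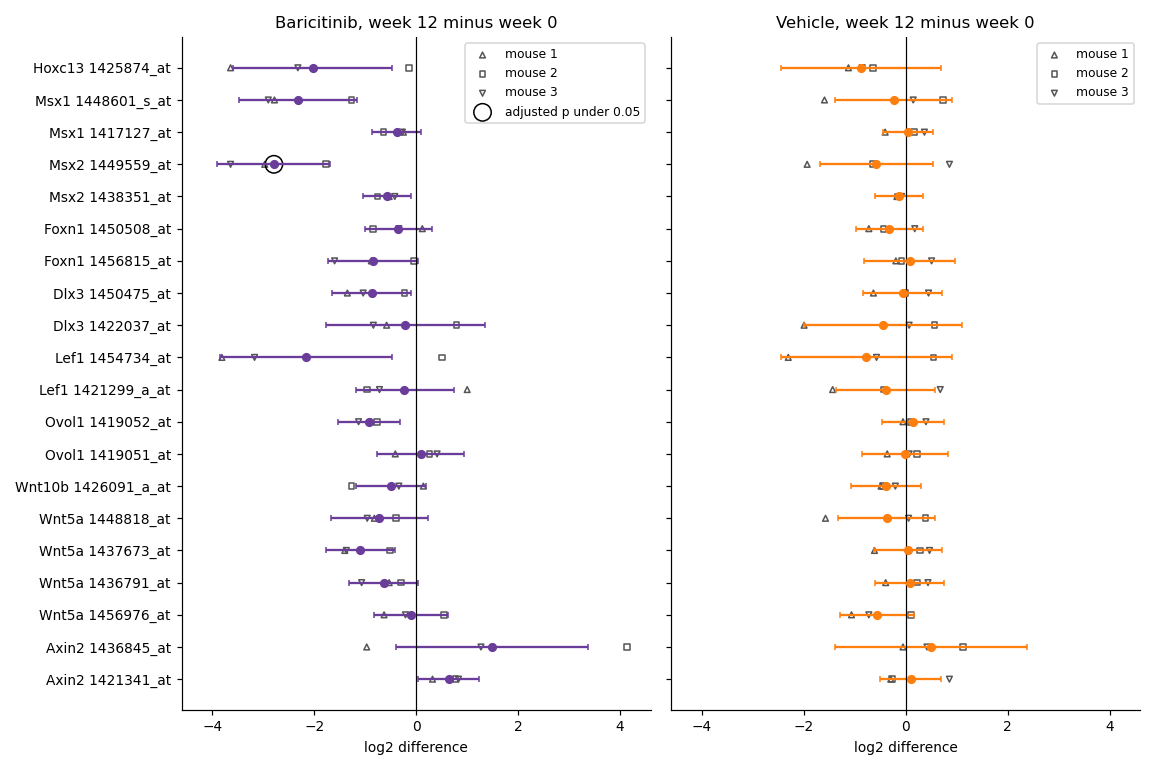
Change over 12 weeks in the 20 member probe sets with baricitinib (left) and with vehicle (right), as log2 differences of week 12 minus week 0 with 95% intervals. Open symbols are single mice, whose numbers are separate in each treatment, and a ring marks an adjusted p under 0.05. Msx2 alone is ringed at -2.79, and with vehicle the estimates run from -0.87 to 0.50.

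Among the Wnt genes, no probe set passed the test. Wnt5a, a ligand that signals largely without beta-catenin, had levels of 6.31, 6.45 and 6.55 at baricitinib week 12, against 7.71, 6.96 and 7.92 at baricitinib week 0 in 1437673_at. The groups did not overlap there, and the difference was -1.10 (SE 0.31, interval -1.77 to -0.42, adjusted p = 0.128 in limma). Of the other probe sets, 1448818_at gave -0.72 (SE 0.44, adjusted p = 0.577), 1436791_at gave -0.63 and 1456976_at gave -0.10, each with overlapping groups. Wnt10b, a ligand that promotes anagen through beta-catenin, had levels of 4.78, 4.06 and 4.93 at baricitinib week 12, against 4.64, 5.32 and 5.27 at baricitinib week 0. Its difference of -0.49 had an interval of -1.18 to 0.20 (adjusted p = 0.609), and mouse 1 was slightly higher at week 12.

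Axin2, a beta-catenin target whose product restrains the pathway, was the only gene whose probe set of highest mean gave an estimate above 0. Its probe set with the higher mean, 1436845_at, had levels of 8.23, 10.73 and 10.76 at baricitinib week 12, against 9.20, 6.58 and 9.48 at baricitinib week 0. The groups overlapped, since the change was -0.97 in mouse 1, 4.14 in mouse 2 and 1.27 in mouse 3. The difference of 1.48 (SE 0.86, interval -0.40 to 3.36) had an adjusted p of 0.551 in limma and ranged from 0.56 without baricitinib week 0 replicate 2 to 2.32 without baricitinib week 12 replicate 1. The other, 1421341_at, read 4.27, 4.80 and 5.01 at baricitinib week 12, against 3.95, 4.03 and 4.18 at baricitinib week 0, without overlap (0.64, SE 0.28, adjusted p = 0.367).

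With vehicle, no member passed the test, nor did any probe set on the array (0% of all called, 2.46% at an unadjusted p under 0.05, and 0 of 20 members). The 20 estimates ran from -0.87 to 0.50, and the week 12 and week 0 groups overlapped in every member (of all probe sets, 3.59% were below and 4.68% above without overlap). Msx2 had levels of 6.77, 7.10 and 7.44 at vehicle week 12, against 8.70, 7.74 and 6.58 at vehicle week 0, a difference of -0.57 with an interval of -1.67 to 0.53. Hoxc13 had levels of 9.28, 8.60 and 7.50 at vehicle week 12, against 10.40, 9.24 and 8.35 at vehicle week 0. It was lower at week 12 in 3 of 3 mice, with changes of -1.12, -0.64 and -0.85. The difference of -0.87 (SE 0.71, interval -2.44 to 0.69, without the pairing) did not pass in limma, with an adjusted p of 1 both without and with the mouse as a block. Lef1 had levels of 7.86, 8.28 and 7.47 at vehicle week 12, against 10.15, 7.73 and 8.04 at vehicle week 0, where replicate 1 stood above the rest.

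At week 12, no member passed the test between baricitinib and vehicle, beside 0.58% of all probe sets (0.429% lower and 0.151% higher), and 3 of 20 had an unadjusted p under 0.05, against 10.9% of all. All baricitinib arrays were below all vehicle arrays in 5 of 20 member probe sets (9.69% of all) and above them in 1 of 20 (7.44% of all). Msx2 in 1449559_at was 5.60, 5.59 and 5.32 with baricitinib, against 6.77, 7.10 and 7.44 with vehicle, a difference of -1.60 (SE 0.50, interval -2.70 to -0.50, adjusted p = 0.228 in limma). Ovol1 in 1419052_at was 8.29, 8.30 and 8.63 with baricitinib, against 9.68, 9.40 and 9.24 with vehicle (-1.03, SE 0.28, adjusted p = 0.152). These probe sets were without overlap, as was Wnt5a in 1437673_at, at 6.31, 6.45 and 6.55 with baricitinib, against 7.36, 7.30 and 7.61 with vehicle (-0.99, SE 0.31, adjusted p = 0.224). The other probe sets of these genes did not show this. They gave -0.06 for Msx2 (1438351_at) and -0.15 for Ovol1 (1419051_at), each with overlapping groups. For Wnt5a, 1448818_at, its probe set of highest mean, gave 0.15 (interval -0.81 to 1.11) and 1436791_at gave -0.26, both with overlap, and in 1456976_at all baricitinib arrays were above all vehicle arrays (0.13, adjusted p = 0.962). Dlx3 in 1450475_at (-0.46, adjusted p = 0.75 in limma) and Foxn1 in 1456815_at (-0.82, adjusted p = 0.509) were also below vehicle without overlap. Their other probe sets overlapped, at 0.30 for Dlx3 (1422037_at) and -0.23 for Foxn1 (1450508_at). For Msx1 the difference was -1.04 (interval -2.20 to 0.11), for Hoxc13 -0.84 (interval -2.41 to 0.72), for Lef1 -0.63 (interval -2.31 to 1.05) and for Axin2 0.83 (interval -1.05 to 2.71), with overlapping groups in each.

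Before treatment, no member passed the test between the mice later given baricitinib and those given vehicle (0% of all probe sets, 1.13% at an unadjusted p under 0.05, and 0 of 20 members). The differences ran from -0.33 to 1.04, and the groups overlapped in every member (of all probe sets, 2.73% were below and 2.27% above without overlap). The highest was that of Msx1, at 8.37, 6.22 and 7.80 in baricitinib week 0 skin, against 7.15, 5.87 and 6.25 in vehicle week 0 skin (interval -0.11 to 2.19). The baricitinib mice thus started from higher mean Msx1 and Msx2 levels (0.62 for Msx2, interval -0.48 to 1.73) than the vehicle mice, by amounts within the spread between mice.

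The change with baricitinib minus the change with vehicle was the direct comparison of the treatments over time, and no member and no other probe set passed it (0% of all called). At an unadjusted p under 0.05 there were 4 of 20 members, against 6.27% of all probe sets. The estimates were -2.22 (SE 0.71, interval -3.78 to -0.66, adjusted p = 0.541 in limma) for Msx2 and -2.08 (SE 0.74, interval -3.71 to -0.46, adjusted p = 0.628) for Msx1. The estimate for Ovol1 was -1.08 in 1419052_at and 0.10 in 1419051_at. For Wnt5a it was -1.14 in 1437673_at, -0.35 in 1448818_at (interval -1.71 to 1.01), -0.72 in 1436791_at and 0.46 in 1456976_at. For Hoxc13 (-1.16, interval -3.37 to 1.05), Lef1 (-1.39, interval -3.76 to 0.99) and Axin2 (0.98, interval -1.67 to 3.64) the intervals included 0. These comparisons share arrays with those above and are not independent of them.

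Several members followed the RNA index of the array. In the fit with the index, Hoxc13 changed by -0.74 per unit of index (adjusted p = 0.00194 in limma), Lef1 by -0.75 (0.00536, 1454734_at) and Axin2 by -0.81 (0.00798, 1436845_at). Dlx3 changed by -0.33 (0.00792, 1450475_at) and -0.74 (0.00166, 1422037_at), and Ovol1 by -0.36 (0.00763, 1419051_at) and -0.21 (0.0474, 1419052_at). Wnt5a changed by -0.36 in 1448818_at (0.0304). No other member probe set passed, with Msx2 at -0.34 (adjusted p = 0.0863, 1449559_at) and Msx1 at -0.16 (adjusted p = 0.479, 1448601_s_at). The index was called for 13585 of the 45037 probe sets, so that this was a feature of many genes. The 2 baricitinib week 12 arrays of low index had the highest Axin2 levels of all 12 arrays, 10.73 and 10.76, and the vehicle week 0 array of low index had the second highest Lef1 level, 10.15.

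**Figure D3:**
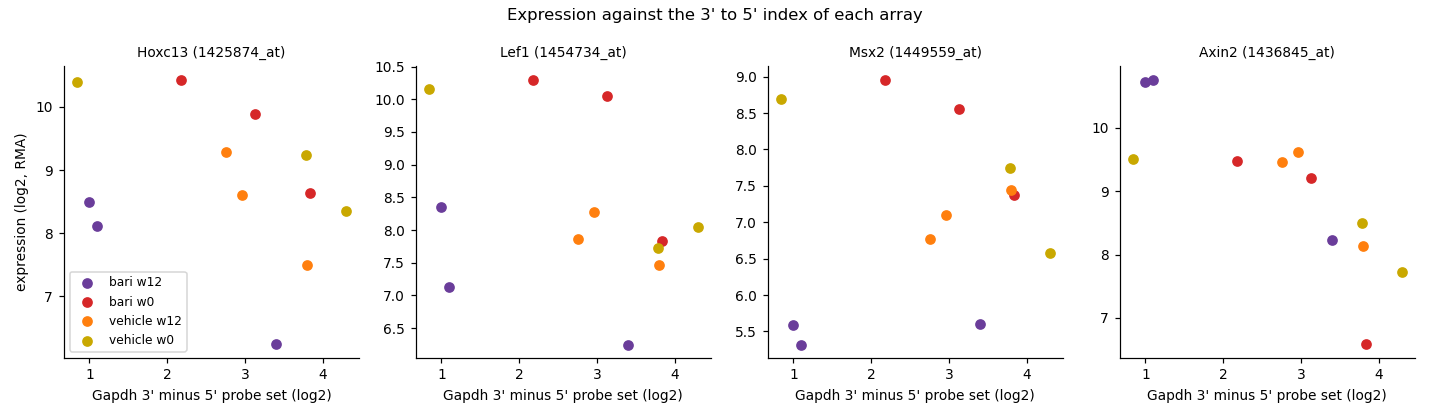
Level of Hoxc13, Lef1, Msx2 and Axin2 (vertical axis, log2) in each of the 12 arrays against the 3' to 5' Gapdh index of that array (horizontal axis, log2), coloured by group. Axin2 is highest in the baricitinib week 12 arrays with indices of 1.00 and 1.10 and lowest, at 6.58, in an array with an index of 3.83, while the 3 baricitinib week 12 arrays for Msx2 stay at 5.32 to 5.60 at indices of 1.00, 1.10 and 3.39.

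With the index as a covariate, an alternative added after the data were seen, 7 of the 20 member probe sets passed as lower at week 12 than at week 0 of baricitinib, against 2.11% of all probe sets, and none as higher, against 1.59% (3.7% in either direction). Hoxc13 then gave -2.93 (SE 0.36, adjusted p = 0.00322 in limma), Msx2 -3.21 (SE 0.45, 0.00534) and Lef1 -3.07 (SE 0.46, 0.00745). Dlx3 gave -1.27 (0.0130, 1450475_at), Wnt5a -1.36 (0.0166, 1437673_at), Ovol1 -1.18 (0.0171, 1419052_at) and Msx1 -2.52 (0.0342). Axin2 was nearer to 0, at 0.49 (SE 0.55, adjusted p = 0.714). Against vehicle at week 12, 3 members passed as lower in that fit, beside 0.935% of all probe sets lower, 0.597% higher and 1.53% in either direction, namely Ovol1 (-1.30, 0.0204), Hoxc13 (-1.83, 0.0365) and Wnt5a in 1437673_at (-1.28, 0.0372), and Axin2 turned to -0.26. With vehicle, 0 members passed (0% of all), and in the comparison of the changes 0 of 20 passed (0.0444% of all). With both arrays of lowest correlation left out instead, Msx2 and Msx1 passed with baricitinib (1.14% of all probe sets were lower and 1.91% passed in either direction), and Msx1 gave -3.16 (adjusted p = 0.0180). Against vehicle at week 12, 0 members passed without these arrays, beside 2.24% of all probe sets in either direction, 1.25% lower and 0.984% higher.

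**Figure D4:**
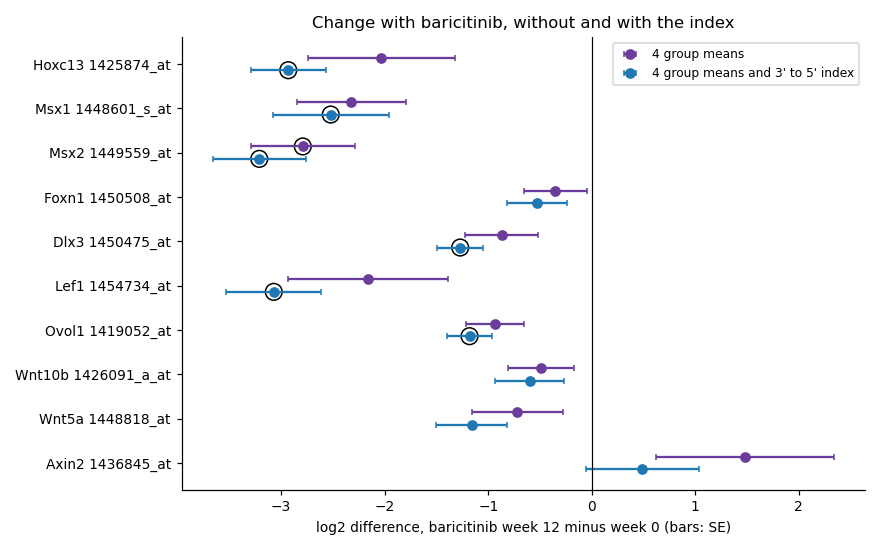
Change over 12 weeks of baricitinib (log2 difference, week 12 minus week 0, bars are SE) in the probe set of highest mean of each gene, fitted with 4 group means alone and with the 3' to 5' index added. Rings mark an adjusted p under 0.05. Msx2 is ringed in both fits, Hoxc13, Msx1, Dlx3, Lef1 and Ovol1 in the second only, and Axin2 lies at 1.48 and 0.49.

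The lists of Wnt pathway genes were spread about 0 over 12 weeks of baricitinib, where the probe set of highest mean stood for a gene. Of all probe sets, 0.875% were called lower and 0.362% higher. These shares were 2.11% and 1.59% with the index, and 1.14% and 0.773% without both arrays of lowest correlation. The lists include members again, namely Wnt5a and Wnt10b among the ligands, Axin2 among the inhibitors, and Lef1 and Axin2 among the partners of beta-catenin and among the targets. Other genes also recur, such as Dkk1, Dkk4, Nkd1, Notum, Znrf3 and Rnf43 among inhibitors and targets, so that 1 gene can count in more than 1 list. Of 19 Wnt ligands none passed in either direction (median -0.03, against 0 over all probe sets), and the largest values were those of Wnt3 (0.97, adjusted p = 0.344 in limma) and Wnt7b (0.92, adjusted p = 0.220). Of 22 receptors and R-spondins, the Frizzled receptor Fzd5 fell (-1.73, SE 0.33, adjusted p = 0.0306) and Fzd9 rose (1.11, SE 0.22, adjusted p = 0.0391), with a median of 0.08. With the mouse as a block their adjusted p were 0.0560 and 0.140. Of 19 Wnt inhibitors none passed (median 0.20), and the secreted inhibitor Wif1 gave -1.51 (adjusted p = 0.392), beside Axin2. Of 18 genes for beta-catenin, its partners and its destruction complex none passed (median 0.07), with Lef1 and Axin2 at the ends. Of 14 target genes 1 fell, Bambi, a decoy receptor for the TGF-beta family (-2.54, SE 0.47, adjusted p = 0.0280, or 0.0956 with the mouse as a block), with a median of -0.08. With the index as a covariate, 1 receptor or R-spondin passed as lower and 2 as higher, and 0 ligands and 0 inhibitors passed. In that fit the 1 beta-catenin partner that passed as lower was the member Lef1, which was also 1 of the 2 targets that did. Without both arrays of lowest correlation, 1 ligand and 1 inhibitor passed as higher, 0 receptors passed in either direction, and 1 target passed as lower and 1 as higher. Against vehicle at week 12, none of these lists held a called gene, but 1 ligand, 1 receptor, 1 inhibitor and 1 target passed as higher without these arrays, and 1 receptor passed in each direction with the index.

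Other regulators of the follicle held 2 genes that fell, of 23 (median -0.06, beside 0.875% of all probe sets called lower). These were the homeobox genes Dlx2 (-2.94, SE 0.60, adjusted p = 0.0409 in limma, or 0.111 with the mouse as a block) and Dlx1 (-1.77, SE 0.32, adjusted p = 0.0240, or 0.0440 with the block), which are neighbours of each other in the genome and relatives of Dlx3. With the index as a covariate 2 of the list passed as lower and 2 as higher (2.11% and 1.59% of all probe sets). Without both arrays of lowest correlation 3 passed as lower and 2 as higher (1.14% and 0.773% of all probe sets). In the Hoxc cluster none of 7 genes passed (median -0.34, and the member Hoxc13 alone passed as lower with the index), with Hoxc13 at -2.03 and Hoxc4 at 0.66 (adjusted p = 0.289). The hair shaft keratins, which the matrix factors govern, lay below 0 in 12 of 12 genes (median -4.34), and 3 fell. These were Krt35 (-6.51, SE 0.70, adjusted p = 0.0022), Krt82 (-5.11, adjusted p = 0.0203) and Krt31 (-5.16, adjusted p = 0.0372), of which Krt35 also passed with the mouse as a block (0.0244, against 0.0644 for Krt82 and 0.0692 for Krt31) and against vehicle at week 12 (-4.80, adjusted p = 0.0148). With the index as a covariate 10 of 12 keratins passed as lower (2.11% of all probe sets), and without both arrays of lowest correlation 1 did (1.14% of all). The mean keratin level was 4.71 to 6.21 at baricitinib week 12, against 8.88 to 10.42 at baricitinib week 0, and 7.67 to 8.37 at vehicle week 12, against 6.23 to 10.32 at vehicle week 0.

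**Figure D5:**
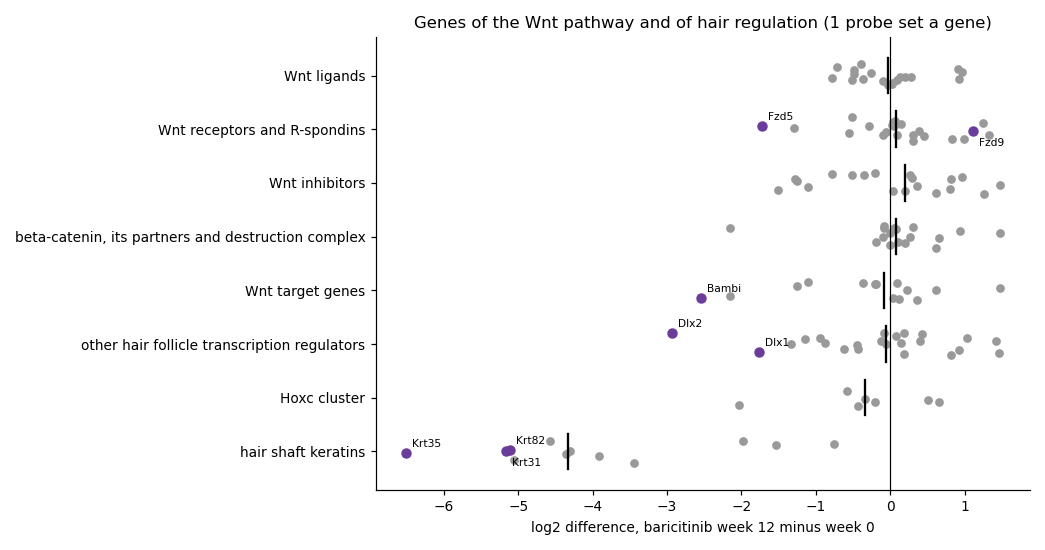
Change over 12 weeks of baricitinib (log2 difference, week 12 minus week 0) for genes of the Wnt pathway and of hair regulation, 1 point for each gene by its probe set of highest mean. Vertical bars are list medians, and named purple points have an adjusted p under 0.05. The Wnt lists have medians between -0.08 and 0.20, whereas the hair shaft keratins have a median of -4.34.

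Markers of some cell types differed between the same groups. Other lists stayed near 0 over 12 weeks of baricitinib, such as fibroblasts (median 0.19) and skeletal muscle (median 0.11). The part of cell types in the members' values was not tested. Of 11 genes of cycling cells, 5 fell with baricitinib over 12 weeks (Bub1, Mcm5, Cdk1, Ccnb2 and Ccna2). Of all probe sets, 0.875% were called lower and 0.362% higher. The mean level of the 11 genes was 7.61 to 8.19 at baricitinib week 12, against 8.94 to 9.22 at baricitinib week 0. With the mouse as a block, Bub1 and Mcm5 also passed, whereas Cdk1 (0.113), Ccnb2 (0.111) and Ccna2 (0.124) did not. Of 12 dermal papilla markers 1 fell, Corin (-3.68, adjusted p = 0.0028 in limma), and of 9 T cell markers 1 fell, Cd8a (-4.29, adjusted p = 0.00912). These lists were split, with 7 papilla markers below 0 and 5 above (median -0.15), and 6 T cell markers below and 3 above (median -0.51). Cidec rose among 6 adipocyte markers (2.76, adjusted p = 0.0176, or 0.0799 with the block), whose mean was 10.69 to 11.18 at baricitinib week 12, against 8.25 to 9.89 at baricitinib week 0. Cldn5 rose among 8 endothelial markers (2.34, adjusted p = 0.0370, or 0.128 with the block). Among 11 keratinocyte markers, Krt15 (2.36, adjusted p = 0.0227, or 0.0657 with the block) and Col17a1 (1.36, adjusted p = 0.0176, or 0.0825 with the block) rose. The keratinocyte mean was 12.35 to 12.67 at baricitinib week 12, against 12.04 to 12.15 at baricitinib week 0, so that the defining markers of skin epithelium were present. None of the 10 muscle, 10 fibroblast, 9 macrophage, 6 melanocyte or 5 sebaceous markers passed, although all melanocyte markers (median -1.79) and all macrophage markers (median -0.59) lay below 0. With the index as a covariate, 8 genes of cycling cells, 2 melanocyte markers and 1 macrophage marker passed as lower over 12 weeks of baricitinib (2.11% of all probe sets). In that fit 4 adipocyte and 4 endothelial markers passed as higher (1.59% of all probe sets). Without both arrays of lowest correlation, 3 genes of cycling cells and 1 melanocyte marker passed as lower (1.14% of all probe sets), and 2 adipocyte markers and 1 endothelial marker passed as higher (0.773% of all). Against vehicle at week 12, Corin (-2.78, adjusted p = 0.0165), Cd8a (-4.39, adjusted p = 0.0109) and Mcm5 (-1.60, adjusted p = 0.0463) were lower and Krt15 was higher (2.36, adjusted p = 0.0324), beside 0.429% of all probe sets lower and 0.151% higher. In that comparison 7 of 12 papilla markers (median 0.09) and 5 of 11 keratinocyte markers (median -0.02) lay above 0. So did 2 of 9 T cell markers (median -0.29) and 0 of 11 genes of cycling cells (median -0.70).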

How the data were processed

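Skin RNA of 6 C3H/HeJ grafted mice at weeks 12 and 0 was amplified, labelled and hybridised by the authors, who normalized these 12 arrays by RMA, which corrects background, equalises the distributions of the arrays and summarises the probes of a probe set. The log2 values were used as deposited, with no further scaling, and levels of different probe sets were not compared in a test. The RMA version was not given in the sources used here. Control probe sets (64) were left out, and 45037 were tested, of which 34945 carried 1 symbol, 932 several and 9160 none. The number of arrays, 3 in each group, limits the precision.

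The 4 group means were estimated by limma 3.58.1 (R 4.3.3) with a spread shared by the 4 groups (residual degrees of freedom 8, prior 3.54). Within each comparison, Benjamini-Hochberg adjustment covered the 45037 probe sets, with a threshold of 0.05. Each member probe set is given for the change over 12 weeks of baricitinib. In the other comparisons some probe sets are given by name, and the rest only within ranges or counts. Other genes were represented by their probe set with the highest mean and named if called, otherwise the pair with the largest absolute change in a list. The members, lists and tests were chosen with earlier results of these data known. The labels give each animal a number that recurs at both times, so that arrays of 1 number came from 1 mouse, and this pairing was used as a block in an alternative. Deviations from the group means correlated between the times at -0.362, -0.508 and 0.467 in the baricitinib mice and 0.439, -0.134 and 0.491 in the vehicle mice.

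Other settings were the removal of dim probe sets, a trended robust prior, the mouse as a fixed or random block, fits of the groups compared only, cyclic loess, median centring, array weights, means of the probe sets of a gene, and each array left out. A covariate for the 3' to 5' Gapdh index and the removal of both arrays of lowest correlation were added after seeing the data. The fit was tested on simulated data. Promoter windows and motifs were read from RefSeq tables with Python 3.11.15, and figures were drawn with matplotlib 3.10.9. Arrays of the study's other experiments were not used here.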

Additional observations from a re-analysis of the deposited data

How the results depend on the processing

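The number of arrays limits every call. With mouse entered as a fixed replicate block, 158 probe sets were called over 12 weeks of baricitinib in place of 557 and 0 members in place of 1. In a fit of the groups compared only, these were 97 and 0, and Msx2 lost its call in each (adjusted p = 0.0843 and 0.0717 in limma). Msx2 also lost it without baricitinib week 0 replicate 1 (0.0900) or 3 (0.119) and without week 12 replicate 2 (0.0893) or 3 (0.102). Leaving out each array gave 70 (without baricitinib week 0 replicate 3) to 1364 calls (without week 12 replicate 1) and 0 to 2 members, and 8 of the 12 arrays moved the count by over 1.5 times. With the dim probe sets left out, cyclic loess, median centring or the mean of the probe sets of a gene there were 2 members in each, the second being Msx1, and 2 without both arrays of lowest correlation (860 calls). With the index there were 7 members (1668 calls). Array weights ran from 0.132 to 32.1 with a convergence warning and gave 11277 calls and 16 members. The fixed block changed no other member's call, and the trended prior and the random block changed none.

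Between the treatments at week 12, 261 calls became 55 in the groups compared only, 1008 without both arrays of lowest correlation, 690 with the index (3 members), 11205 with array weights (7 members) and 32 (without vehicle week 12 replicate 1) to 625 (without baricitinib week 12 replicate 1) with each array left out. For vehicle over time, 0 calls became 1 in the groups compared only, 1 without both arrays, 4986 with array weights and 0 to 1 with each array left out. For week 0, array weights gave 5712 calls and 10 members. For the comparison of the changes, 0 became 1 with cyclic loess, 35 without both arrays, 20 with the index, 7 with gene means, 6590 with array weights (11 members) and 0 to 55 with each array left out.

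Some values changed sign, none of them past the threshold as first fitted, and the cause was not tested. Ovol1 in 1419051_at over baricitinib turned to -0.049 with array weights and -0.35 with the index. With array weights, the vehicle changes of Msx1 (0.41), Wnt5a (0.36, 1448818_at), Dlx3 (0.012) and Lef1 (0.32) turned above 0, as did Lef1 at week 12 (0.082) and Axin2 at week 0 (0.70). With the index, Dlx3 over vehicle was 3e-04, and the week 12 differences of Axin2 (-0.26) and Wnt5a (-0.33) and the comparison of changes of Axin2 (-0.16) fell below 0. Without both arrays, Axin2 at week 0 was 0.76 and the comparison of changes of Foxn1 was 0.071. With gene means, Wnt5a at week 12 was -0.24 and Ovol1 at week 0 was -0.10. With each array left out, the ranges that crossed 0 over baricitinib were -0.25 to 0.35 (Ovol1, 1419051_at), -0.74 to 0.030 (Lef1, 1421299_a_at), -0.67 to 0.27 (Dlx3, 1422037_at) and -0.42 to 0.14 (Wnt5a, 1456976_at). Over vehicle they were -0.074 to 0.37 (Ovol1), -0.13 to 0.35 (Wnt5a, 1437673_at), -0.51 to 0.13 (Msx1), -0.77 to 0.14 (Wnt5a, 1448818_at) and -0.37 to 0.27 (Dlx3). At week 12 they were -0.33 to 0.10 (Wnt10b) and -0.061 to 0.27 (Wnt5a, 1448818_at). At week 0 they were -0.18 to 0.27 (Ovol1), -0.17 to 0.85 (Hoxc13), -0.28 to 0.17 (Wnt10b), -0.69 to 0.76 (Axin2), -0.037 to 0.46 (Wnt5a, 1437673_at) and -0.41 to 0.083 (Foxn1). For the comparison of the changes they were -0.33 to 0.15 (Wnt10b), -0.87 to 0.050 (Wnt5a, 1448818_at) and -0.31 to 0.19 (Foxn1).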

Other observations

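The genes whose levels ran closest to 4 of the members were found by the root mean square difference of log2 values, each centred on its own mean, over the 12 arrays. This is a description of 12 arrays that share mice and RNA quality. For Msx2 these were Msi1 (0.39), which encodes an RNA-binding protein, Bambi (0.42) and Capn8 (0.42), beside an SD of Msx2 of 1.24. Over 12 weeks of baricitinib, Msi1 gave -2.96, Bambi -2.54 and Capn8 -2.34. Since these genes were picked for nearness to Msx2 over the same arrays, such changes follow largely from the choice and are no separate result. For Lef1 they were Pmel (0.53), a melanosome gene, Hoxc13 (0.54) and 1810073O08Rik (0.55), beside an SD of 1.26. For Hoxc13 they were Herc6 (0.39) and Usp18 (0.41), which interferons induce, and Fblim1 (0.45), beside an SD of 1.20. For Axin2 they were Gpt2 (0.17), Ubac2 (0.26) and 2310050C09Rik (0.27), beside an SD of 1.22. None of the genes named for Lef1, Hoxc13 or Axin2 passed the test over 12 weeks of baricitinib.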
